A study of Mus musculus with 18 samples.

Results

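Cthrc1, Tnc, Lrrc15, Lrrc17, Postn and Acta2 are genes of remodelling connective tissue, and their RNA was followed in mouse skin in which Notch was active in the epidermis. They are 6 of the 18193 genes that the platform annotation names with 1 symbol, and they were read by 11 of the 45037 probe sets on each array. Every probe set annotated with one of these symbols was taken. The genes were selected on log2 signals of these arrays, with earlier differences between transgenic and wild-type mice in view, so their differences between genotypes are given as a description, without a test. The data comprised 18 Affymetrix mouse arrays, 3 for each of 6 groups: K14NICDER transgenic epidermis, wild-type epidermis, transgenic dermis, wild-type dermis, transgenic whole skin and wild-type whole skin. In K14NICDER mice the keratin 14 promoter, active in basal keratinocytes, drives a fusion of the Notch intracellular domain with an oestrogen receptor domain, and 4OHT (4-hydroxytamoxifen) switches it on. All mice of both genotypes were C57Bl6xCBA F1 females, 7 weeks old when 4OHT began, and all, wild types included, received 4OHT for 14 days. The labels do not say whether the arrays of a group came from separate animals or pools, or whether the tissues shared animals, so the tests measure only the spread between these arrays. The study's question was how gene expression in the epidermis and the dermis of transgenic mice differs from that of wild-type controls.

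Fibroblasts build and reshape the matrix of the skin, and in healing wounds and in scars some become myofibroblasts, which contract and deposit collagen. Cthrc1 encodes a secreted protein of remodelling matrix. Tnc (tenascin-C) and Postn (periostin) encode matrix proteins that bind integrins and are abundant around healing wounds and growing hair follicles. Lrrc15 encodes a membrane protein with leucine-rich repeats that marks activated fibroblasts, and Lrrc17 a secreted protein with such repeats. Acta2 encodes smooth muscle actin, which is made by myofibroblasts, vessel walls and the muscle that raises hair.

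Promoter windows were taken from the RefSeq table of GRCm38.p6, from 250 bases before to 50 after an annotated start. They are shown because the transgene works through RBPJ, the DNA-binding partner of Notch. A further reason is that Tnc and Lrrc15, like Cthrc1, were higher in every transgenic tissue. The table held 7 windows for 5 of the 6 genes and none for Cthrc1. TGGGAA, the core that RBPJ recognises, was searched on both strands and stood in windows of Tnc and Acta2, while 25.6% of the 32851 mouse windows hold it. Windows of Lrrc15, Lrrc17 and Postn did not contain these letters. TGANTCA, the AP-1 motif, stood in the Lrrc15 window and in 7.81% of all windows. In the sequences that follow, capitals mark TGGGAA in Tnc and Acta2 and the AP-1 match in Lrrc15.
Tnc, chr4:64046887-64047186, minus strand: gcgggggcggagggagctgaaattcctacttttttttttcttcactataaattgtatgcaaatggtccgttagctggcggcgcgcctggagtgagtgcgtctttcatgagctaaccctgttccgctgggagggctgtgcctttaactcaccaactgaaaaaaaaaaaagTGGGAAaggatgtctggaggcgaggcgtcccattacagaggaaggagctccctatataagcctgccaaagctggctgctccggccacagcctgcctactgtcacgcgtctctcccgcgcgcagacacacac
Acta2, chr19:34255324-34255623, minus strand: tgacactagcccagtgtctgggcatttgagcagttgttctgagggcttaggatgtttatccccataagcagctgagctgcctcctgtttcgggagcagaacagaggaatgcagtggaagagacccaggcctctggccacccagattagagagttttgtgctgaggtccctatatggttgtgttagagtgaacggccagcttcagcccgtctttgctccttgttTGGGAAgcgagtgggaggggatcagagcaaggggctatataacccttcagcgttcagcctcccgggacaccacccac
Lrrc15, chr16:30283205-30283504, minus strand: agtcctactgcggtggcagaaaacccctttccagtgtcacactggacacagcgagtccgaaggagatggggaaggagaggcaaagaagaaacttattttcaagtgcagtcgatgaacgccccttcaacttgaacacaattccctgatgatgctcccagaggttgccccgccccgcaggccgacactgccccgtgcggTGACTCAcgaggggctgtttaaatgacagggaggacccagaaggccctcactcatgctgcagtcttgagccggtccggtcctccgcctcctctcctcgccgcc
The Tnc match lies 81 bases before this start and also falls in the window of an overlapping start further upstream, 2 bases before that start. That upstream window holds a second match, on the opposite strand, 250 bases before its start. The Acta2 match lies 27 bases before the start. CAGAC, the SMAD core, stood in windows of Tnc, Postn and Acta2, against 49.6% of all windows, and CATTCC, the TEAD core, in that of Acta2, against 14.7%. A CArG box, bound by serum response factor, was in none of the windows of these genes and in 1.63% of all. With 1 G or C allowed among its inner letters, a form chosen after the sequence was seen, Acta2 held 2 matches and 8.5% of all windows held at least 1. One of those matches overlaps TGGGAA in Acta2. A match is a string of letters and not a measured binding site.

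Values are log2 signals as the authors deposited them, and a difference is a mean log2 signal in transgenic minus wild-type tissue with the standard error (SE) from limma. The lowest value in the table was −7.52 and the highest 14.42, so values near 0 lie at the dim end, where single arrays vary most. In total 13739 genes had a mean above 3.15 over the 18 arrays and were tested. All 6 genes were among these through their brightest probe set, and 9 of their 11 probe sets lay above 3.15. Cthrc1 and Lrrc17 passed only with their transgenic arrays counted, since their means over the 9 wild-type arrays were 2.93 and 2.61. In limma, 7 of 9 differentiated keratinocyte genes were lower in wild-type dermis than in wild-type epidermis, and 8 of 12 resting fibroblast genes were higher. Krt14, the basal keratin whose promoter drives the transgene, still reached 11.45 ± 0.06 in dermis of wild types, against 12.59 ± 0.50 in wild-type epidermis (SD, n = 3). Of 8 basal keratinocyte genes Krt14 was the only 1 called lower in wild-type dermis in limma, and 7 did not pass. The summed linear signal of the 8 was 13800 to 16300 in wild-type dermis and 17500 to 23100 in wild-type epidermis. In tissue RNA a lower signal from fewer cells of a type and one from less RNA per cell cannot be told apart.

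In epidermis, Cthrc1, Lrrc17, Lrrc15, Tnc and Acta2 were higher on all transgenic arrays than on all wild-type arrays, and Postn overlapped. Their differences ranged from 2.58 for Acta2 to 5.92 for Cthrc1. In dermis, Lrrc15, Tnc, Cthrc1 and Lrrc17 were higher on all transgenic arrays, Acta2 was lower on all of them, and Postn overlapped. In whole skin, Tnc, Lrrc15 and Cthrc1 were higher without overlap, and Lrrc17, Postn and Acta2 overlapped. The counts of 5, 4 and 3 genes that were higher without overlap stand beside shares of 10.6%, 3.91% and 11.6% of all tested genes in epidermis, dermis and whole skin. The 1 gene that was lower without overlap in dermis stands beside a share of 5.33%, and the shares that were lower in epidermis and whole skin were 12.3% and 12.7%.

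**Figure D1:**
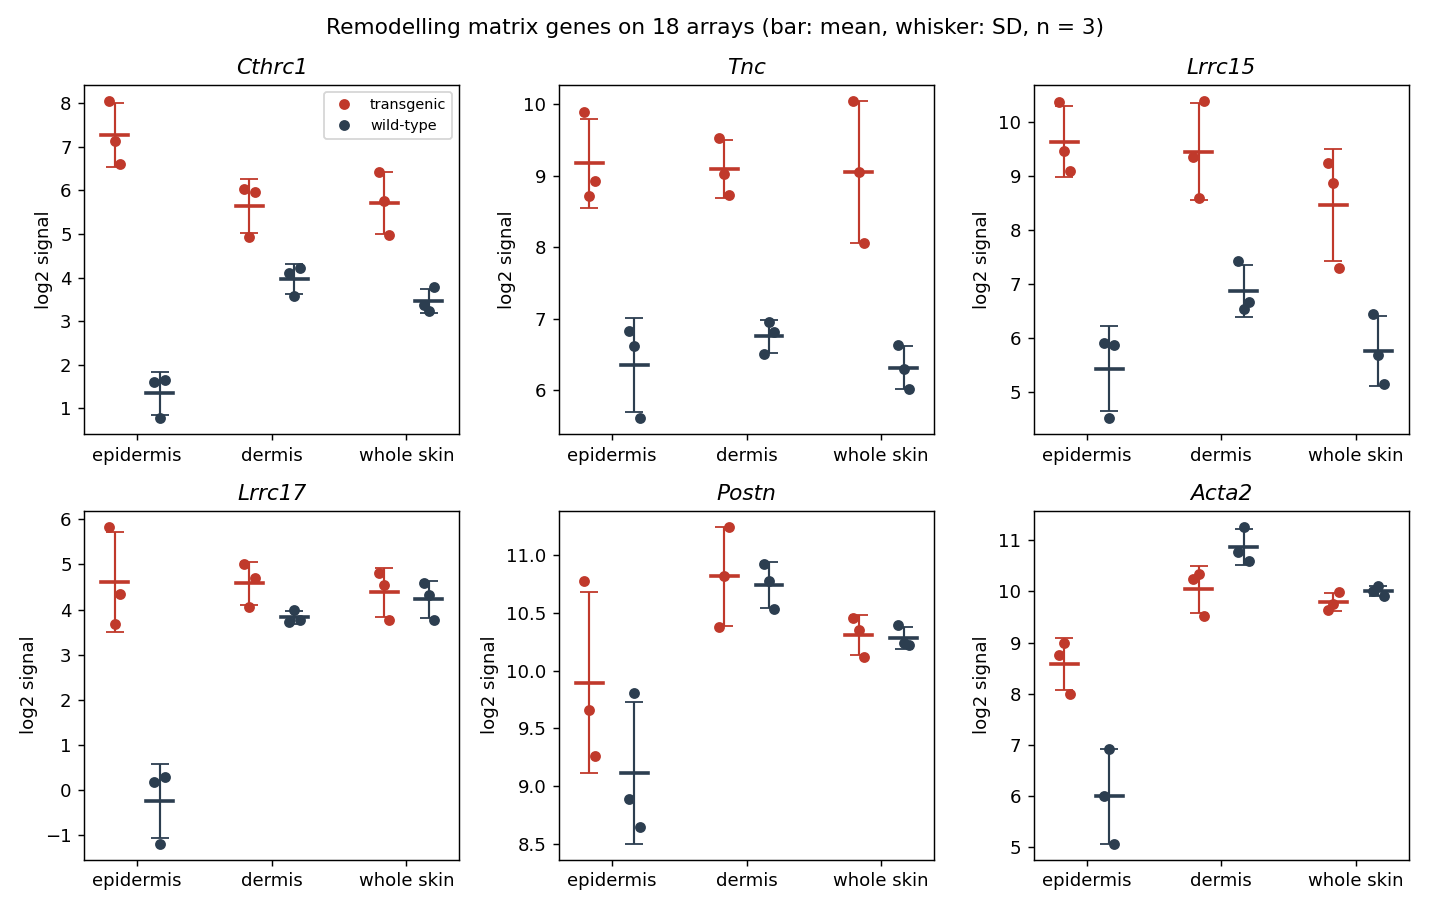
Log2 signal (vertical axis) of the brightest probe set of each gene on every array, by tissue along the horizontal axis, with transgenic arrays left (red) and wild-type arrays right (dark). Points are arrays, bars are means and whiskers SD (n = 3). Cthrc1, Tnc and Lrrc15 separate the genotypes in every tissue, whereas Acta2 is higher in transgenic epidermis and lower in transgenic dermis.

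Cthrc1 differed most in epidermis. Its log2 signal was 8.05, 7.12 and 6.61 on the transgenic epidermis arrays, against 1.61, 0.78 and 1.65 on the wild-type ones. The groups lay 4.96 apart, and the difference was 5.92 ± 0.56 (SE, n = 3 each), or 60.4-fold on the linear scale. Because the wild-type values are at the dim end, the size depends on the scale: with 16 added to the linear signal before log2 the difference was 3.20, and its place by size among the 13739 genes was 19, against 1 on the deposited scale. In dermis the values were 6.04, 4.92 and 5.96 in transgenic mice, against 4.10, 3.58 and 4.22 in wild types, a difference of 1.67 ± 0.47. In whole skin they were 6.41, 5.75 and 4.98 in transgenic mice, against 3.37, 3.24 and 3.78 in wild types, a difference of 2.25 ± 0.36. Thus all transgenic arrays were above all wild-type arrays in each tissue, with a gap of 0.70 in dermis and 1.19 in whole skin.

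Tnc differed by a like amount in the layers and in whole skin. In epidermis its log2 signal was 9.89, 8.72 and 8.93 in transgenic mice, against 6.83, 6.62 and 5.61 in wild types. In dermis it was 9.53, 9.03 and 8.73 in transgenic mice, against 6.5, 6.95 and 6.81 in wild types. In whole skin it was 10.05, 9.06 and 8.06 in transgenic mice, against 6.63, 6.30 and 6.02 in wild types. The differences were 2.83 ± 0.39, 2.34 ± 0.29 and 2.74 ± 0.42, between 5.07-fold and 7.09-fold on the linear scale, and no transgenic array overlapped a wild-type array. The dimmer probe set of Tnc, below the filter level, gave 2.53 ± 0.77 for epidermis, 3.25 ± 1.08 for dermis and 2.88 ± 0.50 for whole skin, also without overlap.

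Lrrc15 separated the genotypes in every tissue, with its widest difference in epidermis. Its log2 signal was 10.37, 9.46 and 9.10 in transgenic epidermis, against 5.90, 4.51 and 5.86 in wild-type epidermis, a difference of 4.22 ± 0.43 or 18.7-fold. It was 9.36, 8.60 and 10.40 in transgenic dermis, against 7.43, 6.53 and 6.66 in wild-type dermis, a difference of 2.58 ± 0.46. It was 9.24, 8.88 and 7.29 in transgenic whole skin, against 6.44, 5.68 and 5.14 in wild-type whole skin, a difference of 2.71 ± 0.49. The other Lrrc15 probe set gave 5.16 ± 0.53 for epidermis, 2.70 ± 0.55 for dermis and 2.51 ± 0.46 for whole skin, and it too separated the genotypes in each. In whole skin, transgenic replicate 1 had the highest and replicate 3 the lowest signal of the transgenic arrays for Cthrc1, Tnc, Lrrc15, Lrrc17 and Postn, and the reverse held for Acta2.

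Lrrc17 was higher in transgenic epidermis on 1 of its 2 probe sets. Its brighter probe set read 5.84, 3.68 and 4.34 in transgenic epidermis, against 0.19, −1.19 and 0.28 in wild-type epidermis, a difference of 4.86 ± 1.03. In dermis it read 5.0, 4.05 and 4.69 in transgenic mice, against 3.72, 4.00 and 3.77 in wild types, where the groups were 0.05 apart. In whole skin it read 4.82, 4.55 and 3.77 in transgenic mice, against 4.58, 4.33 and 3.78 in wild types, and the groups overlapped. The other probe set read 3.31, 0.94 and 3.70 in transgenic epidermis, against 3.70, 3.14 and 5.29 in wild-type epidermis, a difference of −1.39 ± 0.89 of the opposite sign with overlapping groups. The part of the transcript that either probe set reads was not analysed here, and the direction for Lrrc17 in epidermis rests on the choice of probe set. With 16 added on the linear scale, the brighter probe set gave 1.33.

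**Figure D2:**
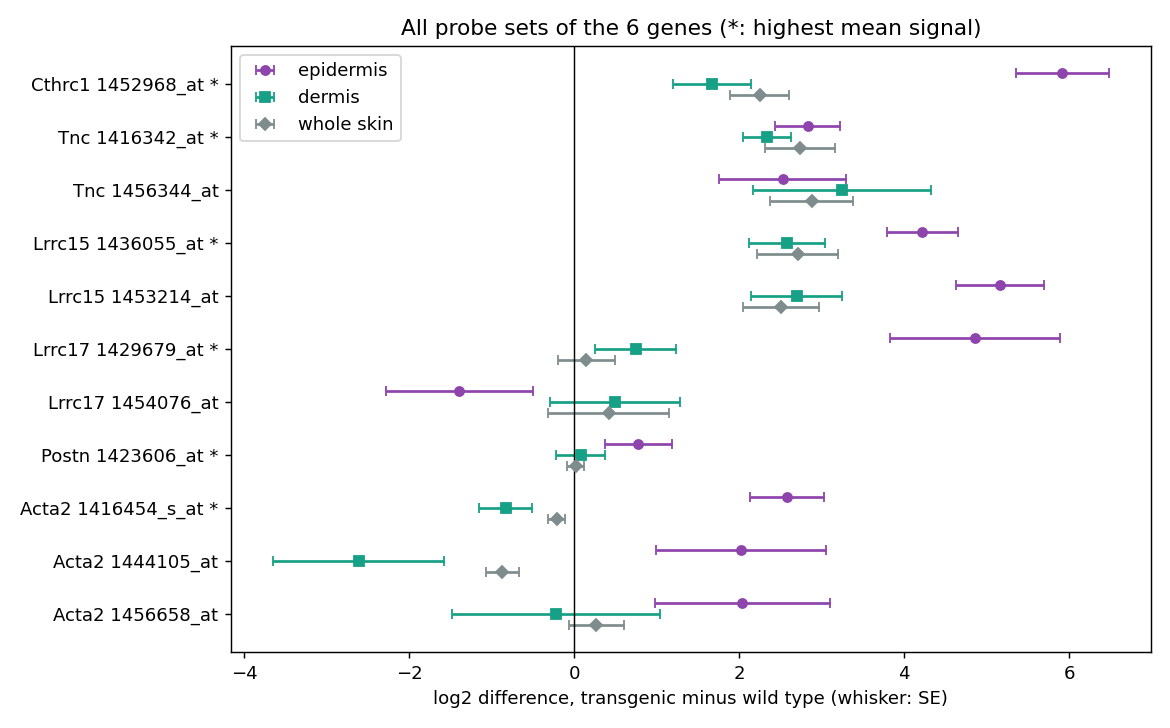
Difference in log2 signal, transgenic minus wild type (horizontal axis), for all 11 probe sets (rows), in epidermis (circles), dermis (squares) and whole skin (diamonds), with SE as whiskers. The Tnc and Lrrc15 probe sets agree in sign within each gene, and the Lrrc17 probe sets lie on opposite sides of 0 in epidermis.

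Postn overlapped between the genotypes in every tissue. Its signal was 10.77, 9.66 and 9.26 in transgenic epidermis, against 8.89, 9.81 and 8.65 in wild-type epidermis, a difference of 0.78 ± 0.41. In dermis it was 10.38, 10.82 and 11.24 in transgenic mice, against 10.92, 10.77 and 10.53 in wild types, a difference of 0.08 ± 0.30. In whole skin it was 10.45, 10.35 and 10.12 in transgenic mice, against 10.39, 10.24 and 10.22 in wild types, a difference of 0.02 ± 0.10. Wild-type replicate 2 was above 2 of the transgenic arrays in epidermis.

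Acta2 differed in opposite directions in the layers. It read 8.75, 8.99 and 8.0 in transgenic epidermis, against 6.0, 6.92 and 5.06 in wild-type epidermis, a difference of 2.58 ± 0.45 or 5.99-fold. It read 10.25, 10.35 and 9.52 in transgenic dermis, against 10.77, 11.27 and 10.59 in wild-type dermis, a difference of −0.83 ± 0.32 with the groups 0.24 apart. In whole skin it read 9.64, 9.75 and 9.98 in transgenic mice, against 10.01, 10.10 and 9.91 in wild types, a difference of −0.21 ± 0.10 with overlap. Of the dimmer probe sets, the one above the filter level gave 2.02 ± 1.03 for epidermis with overlap, and −2.61 ± 1.04 for dermis and −0.87 ± 0.20 for whole skin without overlap. In dermis it read 5.37, 4.48 and 0.43 in transgenic mice, against 5.57, 6.35 and 6.19 in wild types. The groups were 0.20 apart there, and the size of −2.61 leans on the 1 dim array. The other dimmer probe set overlapped in all tissues, with differences of 2.04 ± 1.06, −0.22 ± 1.26 and 0.27 ± 0.33. The brightest Acta2 probe set carries the _s_at suffix, which Affymetrix uses where probes match several transcripts, so signal from related actins cannot be told apart in it. Genes of skeletal muscle, which makes a related actin, varied widely between arrays: the summed linear signal of 8 such genes ran from 1430 to 7770 on transgenic epidermis arrays and from 1730 to 8660 on wild-type epidermis arrays, and from 404 to 20100 on transgenic dermis arrays and from 643 to 16400 on wild-type dermis arrays. In every genotype comparison 0 of the 8 passed in limma, with 0 below 0.05 unadjusted.

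**Figure D3:**
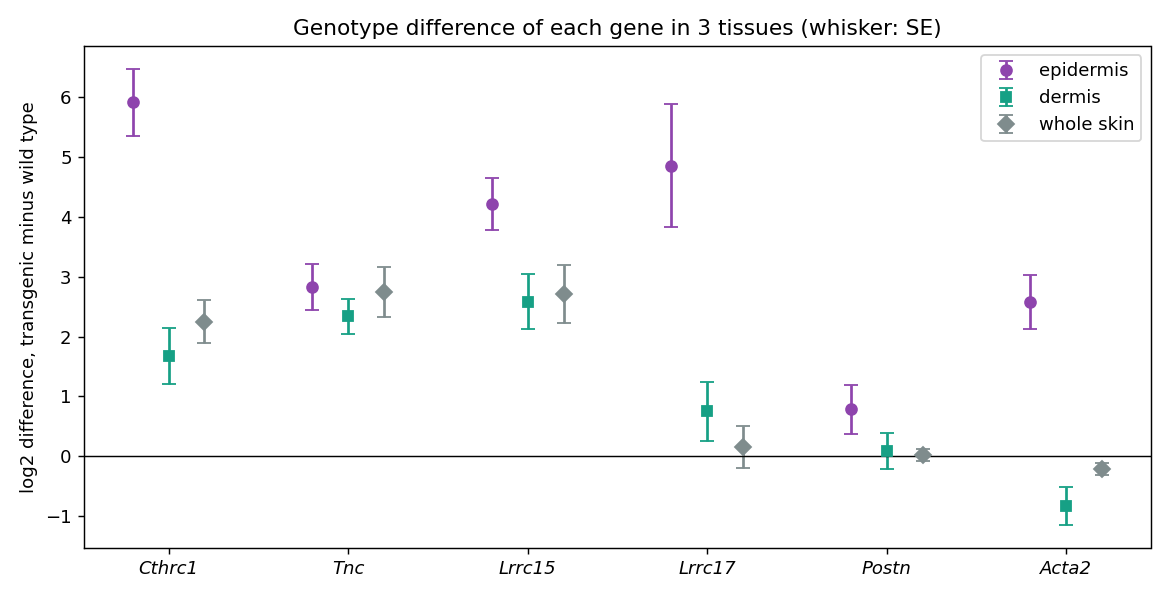
Difference in log2 signal, transgenic minus wild type (vertical axis), of the brightest probe set of each gene (horizontal axis) in epidermis, dermis and whole skin, with SE as whiskers. Differences run from 5.92 for Cthrc1 in epidermis to −0.83 for Acta2 in dermis.

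The layers of wild-type skin were compared in limma across all genes. The wild-type epidermis arrays of this contrast are also one side of the genotype differences known when the genes were chosen, so its p-values are not independent of the choice. There, Acta2 was higher in dermis, at 10.88 ± 0.35, than in epidermis, at 6.0 ± 0.93 (SD, n = 3), a difference of 4.88 ± 0.42 (SE; limma, adjusted p = 1.78e-04). Postn was higher in dermis by 1.62 ± 0.32 (limma, adjusted p = 0.00647), Lrrc17 by 4.07 ± 1.19 (limma, adjusted p = 0.0370) and Lrrc15 by 1.45 ± 0.44 (limma, adjusted p = 0.0424). In each of these 4 genes all dermis arrays lay above all epidermis arrays on the brightest probe set. The other Lrrc17 probe set had the opposite sign, −0.60 ± 0.78 with overlap (limma, adjusted p = 0.640), so the direction for Lrrc17 between the layers also rests on the probe set. The other Lrrc15 probe set gave 1.49 ± 0.70 with overlap and did not pass (limma, adjusted p = 0.175). Cthrc1 also lay higher in every dermis array, by 2.62 ± 0.85, and did not pass (limma, adjusted p = 0.0537). Tnc overlapped between the layers, with a difference of 0.40 ± 0.36 (limma, adjusted p = 0.458). Its dimmer probe set, below the filter level, gave −1.24 ± 1.12, also with overlap (limma, adjusted p = 0.486). The 4 of 6 genes called higher stand beside 12.7% of all tested genes (19.5% in either direction). The 5 of 6 higher without overlap stand beside 23.2% (16.8% lower). Given how the genes were chosen, these counts are a description and not a test of the 6 genes together. Cthrc1 and Lrrc17 entered this contrast only through their transgenic arrays, since their wild-type means were below the filter level. The calls of Acta2 and Postn held in all 13 alternatives tried, with adjusted p of at most 0.031 in limma. That of Lrrc15 held in 7 (0.0202 to 0.144), that of Lrrc17 in 8 (6.48e-05 to 0.2), and Cthrc1 passed in 6 (5e-04 to 0.244). Without wild-type dermis replicate 1, 2 or 3 neither Lrrc15 nor Lrrc17 passed, and without wild-type epidermis replicate 2 or 3 Lrrc15 did not.

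Of the 83 other matrix genes described further on, 53 were higher in wild-type dermis and 0 lower in limma, with a median of 1.982. They included Ccn2, a matricellular protein, by 4.61 ± 0.28 (limma, adjusted p = 9.56e-05), Mylk, the kinase of smooth muscle myosin, by 3.64 ± 0.27 (limma, adjusted p = 1.37e-04), and the integrin subunit Itga8 by 6.58 ± 0.85 (limma, adjusted p = 8.66e-04). By list these were 17 of 27 remodelling genes, 12 of 14 collagens, 11 of 14 contractile genes, 5 of 12 receptors and 8 of 16 signalling genes.

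In transgenic skin the mean differences between layers were smaller or turned round on the brightest probe sets. The genes were chosen with genotype differences in view, and a higher signal in transgenic epidermis by itself lowers dermis minus epidermis. These values are therefore a description and were not tested. Dermis minus epidermis was −1.63 for Cthrc1 in transgenic mice, against 2.62 in wild types. It was −0.04 for Lrrc17, against 4.07 in wild types, and −0.19 for Lrrc15, against 1.45 in wild types. For Acta2 it was 1.46, against 4.88 in wild types, for Postn 0.92 against 1.62, and for Tnc −0.09 against 0.40. The genotype difference in dermis minus that in epidermis was therefore −4.25 ± 0.72 for Cthrc1, −4.11 ± 1.02 for Lrrc17, −3.42 ± 0.59 for Acta2 and −1.65 ± 0.70 for Lrrc15. For Postn it was −0.71 ± 0.56 and for Tnc, which overlapped between the wild-type layers, −0.48 ± 0.53. On the other Lrrc17 probe set the order was reversed. Its means were 3.94 in dermis and 2.65 in epidermis of transgenic mice, against 3.44 and 4.04 in wild types. With 16 added on the linear scale the wild-type layer differences were 0.77 for Cthrc1 and 0.84 for Lrrc17. The size of the change for these genes thus depends on the scale, and for Lrrc17 its direction on the probe set.

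Each gene was also set beside the genes whose centred log2 values lay nearest over the 18 arrays, by root-mean-square distance. Cthrc1 lay nearest to Krt6a, a keratin of wounded epidermis, at 0.53, where the median gene stood at 2.08. Next came Pmepa1, an inhibitor of TGF-beta signalling, and Col8a1, a short-chain collagen, both at 0.95. Lrrc15 had Krt6a (0.82), Pmepa1 (0.91) and AU018091 (0.97) as its nearest genes. For Tnc the nearest were Kif26b (0.74), Col12a1, a fibril-associated collagen (0.76), and Pmepa1 (0.78). For Lrrc17 they were Fabp7 (0.79), Srpx2 (0.80) and Adam12, a metalloprotease of activated mesenchyme (0.82). Postn was nearest to Col3a1, a fibrillar collagen of skin (0.24), Cpe (0.27) and Lgals1 (0.28), and Acta2 to C1qc, a complement component of macrophages (0.49), Pcolce (0.52) and Golm2 (0.54). The median gene stood at 1.57 from Tnc, 1.93 from Lrrc15, 1.91 from Lrrc17, 0.91 from Postn and 1.72 from Acta2. Among the 6 genes, Cthrc1 and Lrrc15 lay closest together, at 0.80, and Lrrc15 and Acta2 farthest apart, at 2.12. The same arrays enter every distance, and genes of small range lie near many others.

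Other genes of the matrix, 83 in 5 lists written from general knowledge with earlier results known, were tested across all genes. In epidermis 20 rose and none fell in limma, 63 did not pass, and 41 were higher and 3 lower at an unadjusted p under 0.05. Their median difference was 0.883, against −0.0951 over all genes, of which 1.54% rose and 0.844% fell (2.38% together). Of all 13739 genes, 1208 were higher and 1213 lower in epidermis at an unadjusted p under 0.05 in limma. Of 27 remodelling matrix genes 6 rose: among them Mmp13, a collagenase, by 5.84 ± 0.69 (limma, adjusted p = 0.00264), and Adam12 by 3.04 ± 0.54 (limma, adjusted p = 0.0189). Fn1, fibronectin, rose by 2.54 ± 0.51 (limma, adjusted p = 0.0303) and Bgn, a matrix proteoglycan, by 2.10 ± 0.44 (limma, adjusted p = 0.0340). Of 14 collagens 8 rose, including Col6a2 by 2.63 ± 0.30 (limma, adjusted p = 0.0021), Col8a1 by 5.18 ± 0.74, Col5a1 by 2.20 ± 0.35 and Col12a1 by 2.38 ± 0.40. Of 16 TGF-beta and PDGF signalling genes 3 rose: Pdgfrb, a receptor of mesenchymal cells, by 2.48 ± 0.33, Inhba, a subunit of activin, by 3.44 ± 0.57, and Skil, a repressor of SMAD activity, by 1.53 ± 0.28. Of 12 receptors of tenascin and periostin 1 rose, the integrin subunit Itgb8, by 2.20 ± 0.31 (limma, adjusted p = 0.00617). The count of 20 was 4 without transgenic replicate 1, 5 without transgenic replicate 2, 5 without wild-type replicate 3, 37 without wild-type replicate 2 and 34 in a fit of all 18 arrays. Of the genes named here, Mmp13, Col6a2, Pdgfrb and Itgb8 passed whichever array was left out, Col8a1 failed without transgenic replicate 1, and each of the others failed without at least 3 of the 6 arrays in turn.

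**Figure D4:**
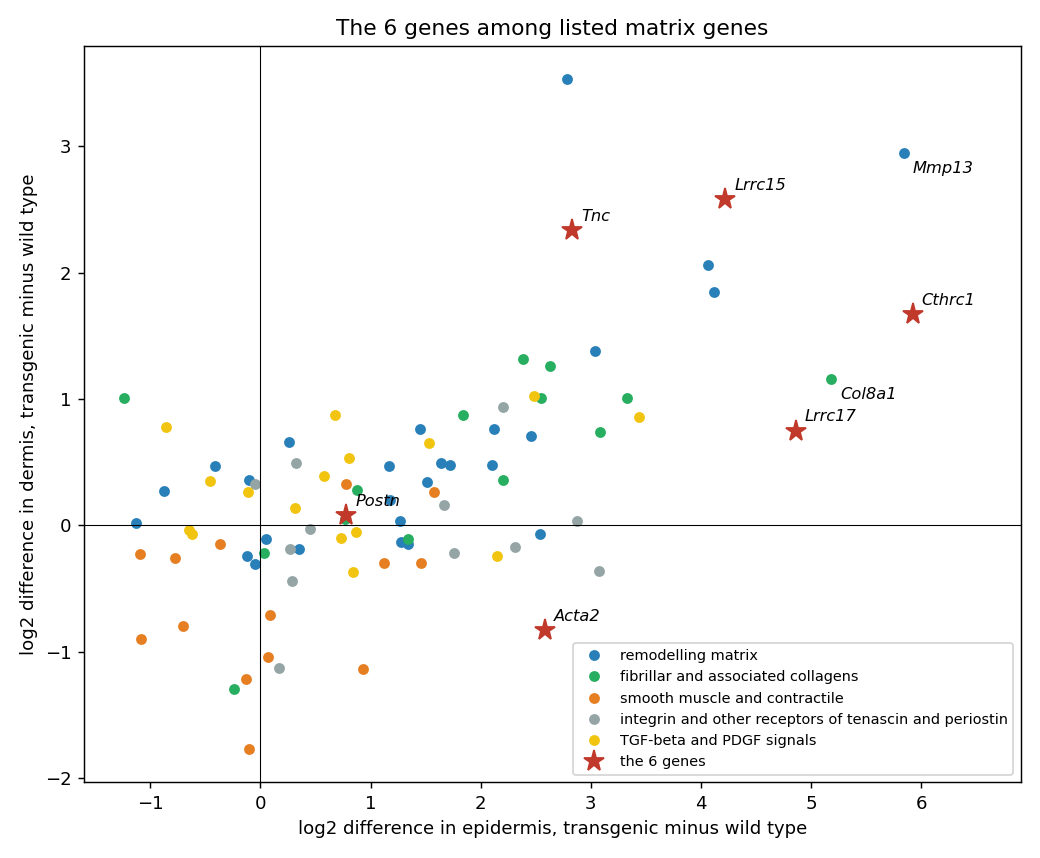
Difference in log2 signal, transgenic minus wild type, in epidermis (horizontal axis) and in dermis (vertical axis), for the 83 listed matrix genes (circles, coloured by list) and the 6 genes (stars). Cthrc1 lies at the right edge near Mmp13, Tnc and Lrrc15 lie in the upper right, and Acta2 lies below 0 in dermis.

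Of 14 contractile genes, the class to which Acta2 belongs by function, 2 rose in epidermis: Tpm2, a tropomyosin, by 1.46 ± 0.26 (limma, adjusted p = 0.0182) and Cald1, caldesmon, by 1.58 ± 0.31 (limma, adjusted p = 0.0287). Neither passed without transgenic replicate 1 or 2 or wild-type replicate 3. The other 12 did not pass, and the median of the list was −0.0144. In dermis none of the 14 passed in limma, and the median was −0.506, against −0.0473 over all genes. Below 0.05 unadjusted 0 of the 14 were higher and 2 lower, beside 286 and 309 of all 13739 genes. Cnn1, calponin, stood at −1.22 ± 0.44 (limma, adjusted p = 0.987) and Myh11, a smooth muscle myosin, at −0.90 ± 0.35 (limma, adjusted p = 0.987). In whole skin Actg2, another smooth muscle actin, fell by 0.78 ± 0.14 on the log2 scale (limma, adjusted p = 0.0240). That call was lost without wild-type replicate 1 or 2 or transgenic replicate 1 or 2. At an unadjusted p under 0.05 in limma, 7 of the 14 were lower, beside 1240 of all 13739 genes.

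In dermis none of the 83 matrix genes passed in limma, in either direction, where 0.0655% of all genes rose and 0% fell. The fit of all 18 arrays also called 0. At an unadjusted p under 0.05 in limma, 14 were higher and 4 lower, beside 286 and 309 of all 13739 genes. Mmp13 stood at 2.95 ± 0.54 (limma, adjusted p = 0.240) and Mmp11, a metalloprotease of stroma, at 2.06 ± 0.44 (limma, adjusted p = 0.353). Without transgenic replicate 1 the list had 1 gene higher and 1 lower. Col12a1 stood at 1.32 ± 0.33 (limma, adjusted p = 0.574). In whole skin 9 rose and 1 fell of the 83, where 1.71% of all genes rose and 1.08% fell (2.79% together). The 4 collagens were Col6a1, which rose by 0.81 ± 0.10 (limma, adjusted p = 0.00631), Col6a2 by 1.02 ± 0.13 (limma, adjusted p = 0.00792), Col6a3 by 0.77 ± 0.12 and Col5a3 by 0.66 ± 0.11 (limma, adjusted p = 0.0151 and 0.0217). Of the receptors, Itgb8 rose by 0.89 ± 0.12 and Itgb6, an epithelial integrin subunit, by 1.79 ± 0.29 (limma, adjusted p = 0.00862 and 0.0178). Inhba rose by 1.33 ± 0.24 (limma, adjusted p = 0.0238), Fbn2, a fibrillin, by 1.21 ± 0.25 (limma, adjusted p = 0.0417) and Timp1, an inhibitor of metalloproteases, by 2.51 ± 0.53 (limma, adjusted p = 0.0453). The count of 9 was 2 without wild-type replicate 1, 3 without transgenic replicate 1 or 2 and 5 without wild-type replicate 3. In the fit of all 18 arrays none of these 9 passed (limma, adjusted p from 0.252 to 1), and 1 other listed gene did. Col6a1 and Col6a2 passed whichever array was left out, Itgb8 failed without wild-type replicate 1, Col6a3 and Itgb6 without 3 of the 6 arrays in turn, Col5a3 without 4, Inhba and Timp1 without 5 and Fbn2 without any 1 of the 6. The difference between the genotype effects of the layers passed for none of the 83 in limma, where 0.0218% of all genes were higher and 0% lower. At an unadjusted p under 0.05 in limma, 1 was higher and 26 lower in dermis, beside 473 and 628 of all 13739 genes.

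Marker genes of other cells were read beside these results, because the separated layers are mixtures. Their unadjusted counts stand beside those over all genes given above. Of the 12 resting fibroblast genes none passed in epidermis in limma, 1 was higher and 3 lower at an unadjusted p under 0.05, and Dpt, a dermal matrix protein, stood at 1.09 ± 0.33 (limma, adjusted p = 0.131). Their summed linear signal was 5310 to 6310 on transgenic epidermis arrays, against 6470 to 12500 on wild-type ones. This sum overlapped between the wild-type layers, at 10900 to 13100 in dermis, although 8 of the 12 genes were higher there in limma. It is therefore not a reading of fibroblast content. The summed signal of the 14 collagens was 11200 to 18100 in transgenic epidermis, against 4300 to 9300 in wild-type epidermis. Pericyte genes, which share Acta2 with vessel walls, had 0 of 8 called in epidermis in limma and 0 below 0.05 unadjusted, with sums of 669 to 803 in transgenic and 611 to 769 in wild-type epidermis. In dermis, where Acta2 was lower, their sums were 2050 to 2940 in transgenic and 1810 to 1980 in wild-type mice. None of the 8 was called there, and 1 was higher and 1 lower below 0.05 unadjusted. These sums include the bright gene Rgs5, with a mean log2 signal of 10.60 in transgenic and 9.64 in wild-type dermis. Cspg4 stood at −0.92 ± 0.30, and the median difference of the list was 0.0956. The sums are therefore not a reading of pericyte content. In whole skin 3 resting fibroblast genes fell: Cd34 by 0.66 ± 0.09, Lum by 0.53 ± 0.10 and Ogn by 0.76 ± 0.16 on the log2 scale (limma, adjusted p = 0.00995, 0.0330 and 0.0417). Cd34 lost its call without transgenic replicate 1, and Lum and Ogn each kept theirs in only 1 of the 6 fits that left out 1 array. None of these 3 passed in the fit of all 18 arrays. Of 8 endothelial genes Flt1 rose by 2.18 ± 0.37 (limma, adjusted p = 0.0171), a call lost without each transgenic array in turn. The endothelial sums were 180 to 207 in transgenic and 113 to 162 in wild-type epidermis. These sums include Flt1, whose mean log2 signal was 6.92 in transgenic and 4.74 in wild-type epidermis. The list as a whole did not rise: its median difference was −0.348, with 1 gene higher and 1 lower below 0.05 unadjusted in limma. Of 10 macrophage genes Ctss and C1qc rose, by 1.78 ± 0.34 and 2.82 ± 0.64 (limma, adjusted p = 0.0251 and 0.0482), and neither passed without transgenic replicate 1 or 2 or wild-type replicate 1 or 3. The macrophage sums were 3430 to 4580 in transgenic epidermis, against 1610 to 3040 in wild-type epidermis. None of 6 adipocyte genes passed in limma, with 3 lower at an unadjusted p under 0.05 and sums of 314 to 941 in transgenic and 854 to 2350 in wild-type epidermis. None of 6 T cell genes passed, and their sums were 387 to 540 in transgenic and 684 to 868 in wild-type epidermis. None of 6 melanocyte and Schwann cell genes passed, with sums of 62.4 to 268 in transgenic and 44.3 to 91.5 in wild-type epidermis. Of the keratinocyte lists, Flg and Casp14, late barrier genes, rose by 2.90 ± 0.22 and 2.54 ± 0.28, and Krt15 and Col17a1, basal genes, fell by 3.66 ± 0.36 and 1.19 ± 0.24 on the log2 scale. Flg, Casp14 and Krt15 passed whichever array was left out, and Col17a1 failed without wild-type replicate 3 or any 1 of the transgenic arrays. The part of these cells in the signals of the 6 genes was not tested.

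**Figure D5:**
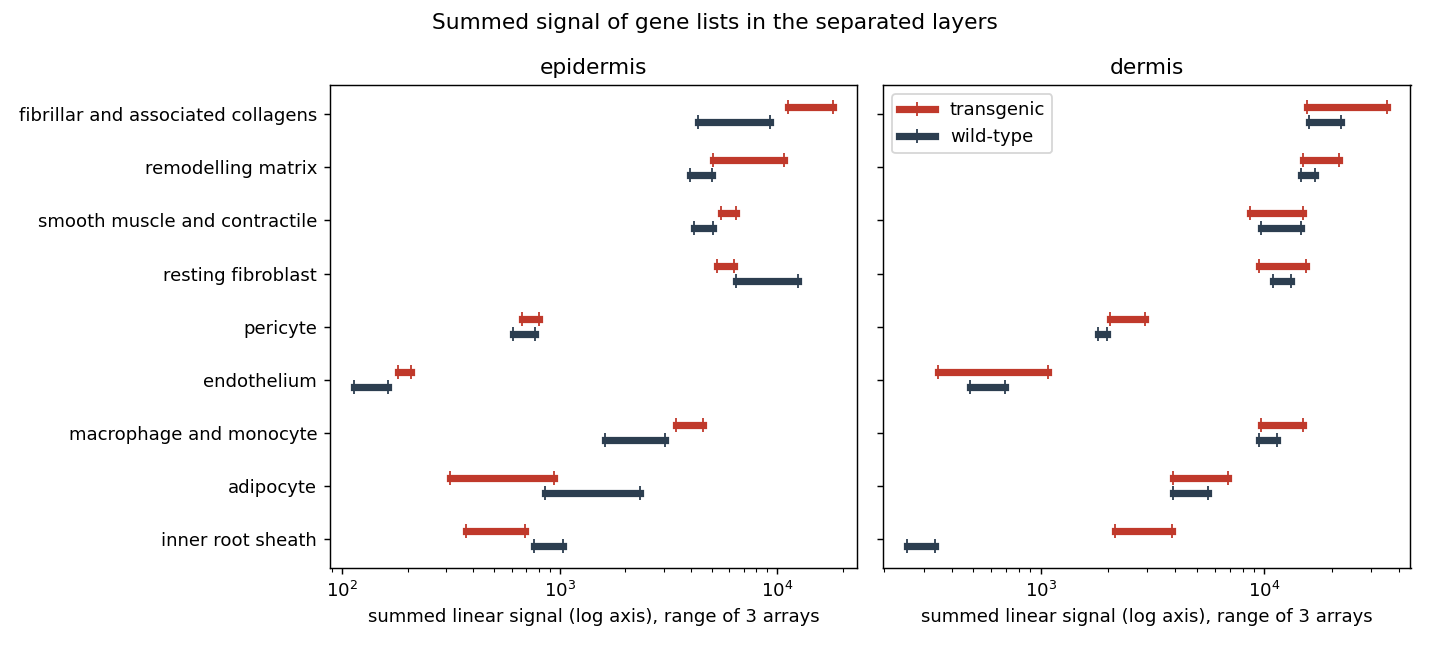
Range over 3 arrays of the summed linear signal of each list (horizontal log axis), with transgenic above wild type in each row, in epidermis (left panel) and dermis (right panel). In epidermis the collagen sums do not overlap between genotypes and are higher in transgenic mice, while the resting fibroblast sums are lower. The resting fibroblast sums of wild-type epidermis and wild-type dermis overlap. In dermis the inner root sheath sums are far apart.

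Tenascin-C is known around growing hair follicles, so follicle lists were read beside it. In dermis 4 of 7 tested inner root sheath genes rose, led by Krt25 by 8.45 ± 0.36 and Tchh by 4.51 ± 0.36 (limma, adjusted p = 2.28e-05 and 0.00316), which passed whichever array was left out. Krt71 and Krt27 rose by 5.79 ± 0.53 and 8.26 ± 0.78 (limma, adjusted p = 0.00633 for both), and failed without transgenic replicate 2 or wild-type replicate 2. The summed signal of the 9 sheath genes on the array was 2140 to 3870 in transgenic dermis, against 253 to 337 in wild-type dermis. Krt25 had an adjusted p of 0.159 and Krt71 of 0.0669 in limma with all 18 arrays. In epidermis the sheath genes did not move one way: Krt73 rose by 4.39 ± 0.80 and Gata3, a transcription factor also made in epidermis, fell by 1.49 ± 0.26 on the log2 scale (limma, adjusted p = 0.0206 and 0.0189), and each failed without 3 of the 6 arrays in turn. The list's median there was 0.566. Its sums were 372 to 689 in transgenic and 762 to 1030 in wild-type epidermis, and Gata3 was bright among its genes, with a mean log2 signal of 8.04 in transgenic and 9.53 in wild-type epidermis. The inner root sheath sums overlapped in whole skin, where Tnc was also higher, at 244 to 1720 in transgenic and 255 to 499 in wild-type mice. Only Krt73 of the 7 tested sheath genes rose there in limma, by 4.26 ± 0.46 (adjusted p = 0.0041). Genes of the dermal papilla and sheath did not pass in dermis (0 of 10 in limma, with 0 below 0.05 unadjusted). In epidermis Rspo3, a Wnt agonist on that list, fell by 3.93 ± 0.71 on the log2 scale (limma, adjusted p = 0.0200), a call lost without wild-type replicate 1 or 3. The part of follicle growth in the Tnc difference was not tested.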

How the data were processed

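RNA was measured on 18 arrays. Per the submitters' processing notes the authors used MAS5, its settings not given in the sources used here. Their deposited table was read as log2 signal, since base 2 gives a mean linear signal, without the top and bottom 2%, of 98.92 to 99.52 on every array. The values were used as deposited. Per the labels' protocols RNA came from column extraction after storage in a stabilising solution. For each gene the brightest probe set over 18 arrays was kept, named from the platform annotation. Genes above the 30th percentile of probe set means were fitted in limma 3.58.1 (R 4.3.3) on the arrays of the compared groups alone, with trended priors and Benjamini-Hochberg adjustment over 13739 genes at 0.05. Tissues were fitted apart because the median SD within groups differed: 0.456 for epidermis, 0.481 for dermis, 0.201 for whole skin. On simulated data for 13739 genes with log2 changes of 2, the fit recovered 47.9% in epidermis, 45.5% in dermis, 88.9% in whole skin, 41.5% between wild-type layers and 25.5% for the difference of genotype effects between layers, with 5.89%, 4.01%, 4.61%, 5.03% and 9.57% of calls false. Alternatives were all 18 arrays, other scaling, an added constant, no filter, other probe set rules, a replicate block and each array left out. The number of arrays limits the precision. The members and lists were chosen with earlier results of these data known. Named genes are the members, the 3 nearest genes of each, and genes drawn from up to 4 called genes of each list with the smallest adjusted p, or 2 where none was called; not all of these list genes are printed.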

Additional observations from a re-analysis of the deposited data

Results flagged for a closer look

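Acta2 stood out because every transgenic array was above every wild-type array in epidermis, with a difference of 2.58, and below every one in dermis, with a difference of −0.83. The difference between these effects was not tested, because Acta2 was picked with results of these contrasts known. Krt15, which encodes a keratin of the basal layer, was the listed gene whose genotype difference in dermis minus that in epidermis passed in limma, at 3.29 ± 0.49 (adjusted p = 0.0424). That call was lost in 11 of 20 alternatives (adjusted p from 0.0027 to 0.198): under quantile normalization, with every probe set, with the replicate block and in 8 of the 12 fits that left out 1 array. The arrays whose absence ended it were wild-type dermis replicates 1, 2 and 3, transgenic dermis replicates 2 and 3, transgenic epidermis replicate 1 and wild-type epidermis replicates 1 and 3, and the difference lay between 2.83 and 3.65 throughout. It fell by 3.66 ± 0.36 on the log2 scale in epidermis (adjusted p = 8.34e-04).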

How the results depend on the processing

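Over the alternatives, 182 values of the 6 genes' genotype differences moved by less than the spread within groups, 12 moved by more and 1 changed sign, that of Lrrc17 in epidermis on its other probe set (−1.39). In their tests between wild-type layers 41 values kept a call, 11 lost it, 6 gained one and 20 were called in neither fit. The genes called in epidermis, dermis, whole skin, between wild-type layers and for the difference of effects were 327, 9, 384, 2684 and 3, and 1044, 38, 37, 4035 and 42 with all 18 arrays. Leaving out 1 array gave 58 to 1385, 2 to 46, 95 to 410, 1253 to 4040 and 0 to 54. Deviations of arrays with the same replicate number correlated between −0.34 and 0.13, so the numbers were not taken as pairs; with the replicate block the counts were 114 in epidermis, 251 in whole skin and 0 for the difference of effects. With the mean of all probe sets whole skin had 240 and the difference of effects 7, and with every probe set the wild-type layers had 4972. The difference of effects had 0 under quantile normalization and with every probe set, 5 after a common 75th percentile and 9 with 16 added on the linear scale. Listed matrix genes called higher in epidermis were 34 (2 lower) with all 18 arrays and 4 to 37 (0 to 1 lower) with 1 array left out. In dermis leaving out 1 array gave 0 to 1 in each direction. In whole skin there were 1 higher and 0 lower with all 18 arrays, 2 to 13 higher and 0 to 2 lower with 1 array left out, 2 lower with the mean of probe sets and with every probe set, and 0 lower with the replicate block. Between wild-type layers they were 53 higher, 42 to 58 with 1 array left out, 94 higher and 4 lower with every probe set, and 1 lower with the mean of probe sets. The 6 genes without overlap between genotypes numbered 5, 5 and 3 in epidermis, dermis and whole skin, 3 in dermis with the mean of probe sets, and 5 to 6, 5 and 3 to 4 with 1 array left out. The cause was not tested, except that every probe set counts more features. Between wild-type layers 65.1% of calls were higher in dermis, 51.3% with the mean of probe sets and 53.3% with every probe set. The median over all genes in epidermis was −0.0951, and 0.0473 and 0.0185 under quantile and 75th percentile scaling. Dim signal limits Cthrc1 and Lrrc17 in wild-type epidermis.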
